A study of Rattus norvegicus with 16 samples.

Results

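A set of 8 genes for the transport of organelles along actin and for recycling to the apical membrane was followed in rat thyroid cells in which the transcription factor *Pax8* had been silenced. The members were 3 small GTPase or adaptor genes of that transport (*Rab17*, *Rab27a* and *Mlph*), 4 myosins (*Myo5a*, *Myo5b*, *Myo1c* and *Myo6*) and the Rab11 effector *Rab11fip5*. They were chosen by gene symbol, and a probe was matched to a symbol through its accession, or for *Rab17* through a supplementary table of the study. Of the 8 genes, 6 had a matched probe, 1 each, among the 41012 probes of the array, and *Rab11fip5* and *Myo6* were not analysed here. *Rab17*, *Mlph* and *Myo5b* were lower in si*Pax8* cells than in both kinds of control cells. *Myo5a* was called higher against wild type cells only, a call lost in some alternative analyses, and not against cells with a scrambled siRNA. *Rab27a* and *Myo1c* passed the test in neither comparison. The fall of *Rab17* was to 33.5% of its level in wild type cells but to 79.8% of that in cells with a scrambled siRNA.

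The cells were PCCl3, a differentiated line derived from normal rat thyroid that expresses thyroglobulin and iodide transporter, grown with TSH, insulin and hydrocortisone in every condition. There were 3 conditions: wild type cells (wt), cells given an siRNA against *Pax8* (si*Pax8*) and cells given a scrambled siRNA with no intended target (siScramble). The siRNAs were used at 10 ng/ml with Lipofectamine, and the methods place the silencing 48 h after transfection. The labels call the wt cells only wild type, whereas the methods list cells that received Lipofectamine as the third condition and the legend of an immunoblot describes wt cells as untransfected. Total RNA was hybridised in pairs on 2-colour Agilent arrays, 8 arrays of si*Pax8* against wt and 8 of si*Pax8* against siScramble, each set with 4 biological replicates in both dye orientations. The labels do not say whether the replicates were separate transfections, so p-values measure only the spread between these samples. The legend of the study's scheme does not say whether the si*Pax8* samples were shared between the comparisons. If they were, calls in both comparisons are not independent of each other. In RNA from a whole culture, fewer cells that express a gene and less RNA per cell cannot be told apart.

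Unconventional myosins are motors that move along actin filaments or tether membranes to them. Rab GTPases mark each class of vesicle and recruit a motor through adaptor proteins. The best known chain is that of the melanosome, in which Rab27a binds melanophilin, the product of *Mlph*, which in turn binds myosin Va. In polarised epithelia myosin Vb works with Rab11 and its effectors in apical recycling endosomes, where the epithelial GTPase Rab17 is also found. Thyroid follicular cells are polarised epithelial cells that secrete thyroglobulin across the apical membrane and take it up again there.

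Values are log2 ratios of si*Pax8* over control, with the dye-swapped arrays of a replicate averaged, so that values below 0 stand for less RNA after *Pax8* silencing. This direction follows from the dyes in the labels and is the opposite of the one in which the study's text words its counts. In this direction the log2 ratios of the targeted gene *Pax8*, given below, were below 0 in every replicate. A probe was called at an adjusted p below 0.005 in limma's moderated test, with Benjamini-Hochberg adjustment over all probes. Against wt cells 15.2% of all probes were called, 8.2% lower and 7.02% higher. Against siScramble cells 2.03% were called, 0.849% of all probes as lower. The difference between the comparisons was called for 3.35% of probes. All 6 measured members were well above background. With dim probes left out, the shares called were higher, at 25.6% against wt, 3.06% against siScramble and 5.64% for the difference. Of all probes 0.673% were lower in both comparisons. The *Rab17* probe was named only through a supplementary table that ranks probes by their change and, by its legend, holds the study's significant probes. An unchanged probe of another member could hardly have been named this way. *Rab17* is therefore counted apart. Of the 5 members named through RefSeq, 3 were called against wt, 2 lower and 1 higher, 2 were called against siScramble, the same 2 lower, and 0 for the difference in limma (2 at an unadjusted p below 0.05). Their median log2 ratio was -0.02 against wt and -0.04 against siScramble, beside -0.0036 and -0.0038 for all probes. With *Rab17*, whose calls were not independent of its naming, the calls were 4, 3 and 1 of 6 members, and the medians -0.19 and -0.18.

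*Pax8* itself, the targeted gene, had log2 ratios against wt of -0.84, -0.57, -0.59 and -0.26 in replicates 1 to 4, a mean of -0.56 ± 0.24 (SD, n = 4, limma adjusted p = 0.000489). Against siScramble they were -0.58, -0.29, -0.12 and -0.01, a mean of -0.25 ± 0.25 (SD, n = 4), which was not called (limma adjusted p = 0.147). All 8 values were below 0, and the spread between replicates was larger than for any member in the comparison with wt. Spots well above background made up 54.0 to 60.8% per array in Cy3 and 52.0 to 59.1% in Cy5. Of 10 thyroid follicular cell markers, 9 were measured, and all 9 were above background on every array. Their summed linear intensity was 186500 to 199900 in wt cells and 119500 to 128000 in si*Pax8* cells of the same arrays. It was 148400 to 176100 in siScramble cells against 128100 to 130200 in their si*Pax8* partners. Of the 9, 7 fell and 1 rose against wt, and *Tg*, the thyroglobulin gene, alone fell against siScramble. The part of this change in thyroid markers in the results for the members was not tested. None of 6 melanocyte markers had a matched probe. *Col3a1*, *Dcn* and *Lum* of the fibroblast list, *Calca* and *Chga* of the C cell list and *Pecam1* of the endothelial list were above background on no array, and *Cd68* of the macrophage list was higher against wt (log2 ratio 0.30 ± 0.12, SD, n = 4, limma adjusted p = 0.000819). *Cd14* of the same list, also above background on every array, had 0.15 ± 0.14 (adjusted p = 0.115) and *Csf1r* 0.0073 ± 0.088 (0.938). *Syp*, *Kdr* and the dimmer probe of *Col1a2* were above background on at most 1 array of a condition, and none of these markers was called.

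The windows around the starts of *Rab17* and *Myo5b* are shown because both genes fell in both comparisons while their fall differed in size. They run from 250 bases before to 50 after the annotated start in RefSeq's rat assembly GRCr8, on the strand of the gene, for *Rab17* at chr9:99013983-99014282 (minus strand) and for *Myo5b* at chr18:70313726-70314025 (plus strand). Capitals mark GGGCGG, the GC box, on either strand. The other motif searched was GCGTGAC, letters from the core of the site bound by Pax2, Pax5 and Pax8, again on both strands.
Rab17: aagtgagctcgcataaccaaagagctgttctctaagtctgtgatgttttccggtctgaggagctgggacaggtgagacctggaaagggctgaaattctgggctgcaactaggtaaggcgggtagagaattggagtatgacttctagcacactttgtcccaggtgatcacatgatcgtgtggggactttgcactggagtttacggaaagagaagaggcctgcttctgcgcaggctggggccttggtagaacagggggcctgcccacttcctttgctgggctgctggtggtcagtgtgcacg
Myo5b: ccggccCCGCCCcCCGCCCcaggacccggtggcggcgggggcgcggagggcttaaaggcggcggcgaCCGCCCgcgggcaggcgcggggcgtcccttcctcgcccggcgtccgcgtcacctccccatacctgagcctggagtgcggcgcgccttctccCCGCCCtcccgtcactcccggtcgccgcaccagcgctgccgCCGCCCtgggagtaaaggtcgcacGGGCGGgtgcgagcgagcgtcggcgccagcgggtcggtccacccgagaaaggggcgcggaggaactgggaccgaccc

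The *Rab17* window held neither motif, and the *Myo5b* window held 6 GC boxes and no GCGTGAC. The GC box nearest the start of *Myo5b* began at -27. Of the 8 members, 7 had a window in the table, *Myo1c* with 2, and *Mlph* had none. GGGCGG was found in windows of 6 of the 7 and in 33.1% of all 33469 windows of the same length. GCGTGAC was found only in the window of *Rab11fip5*, at -70, and in 2% of all windows. The windows of *Rab17* and *Myo5b* had 54% and 78.7% G and C, beside a median of 51.7% over all windows. These are matches of letters and say nothing of whether a factor binds there.

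*Rab17* encodes the small GTPase of apical recycling named above, and its probe (A_44_P186165, accession XM_578804) had the naming given above, which was not independent of its fall. Against wt its log2 ratios were -1.52, -1.50, -1.59 and -1.70 in replicates 1 to 4. Every replicate was far below 0, and the fourth was the lowest. The mean was -1.58 ± 0.093 (SD, n = 4), with a 95% confidence interval of -1.67 to -1.49 and an adjusted p of 4.16e-08 in limma. Of the 41012 probes, 3 had a lower mean log2 ratio in that comparison. Against siScramble the log2 ratios were -0.26, -0.33, -0.34 and -0.38. All 4 were below 0 and close together, and none reached the range found against wt. The mean was -0.33 ± 0.050 (SD, n = 4), with an interval of -0.39 to -0.26 and a limma adjusted p of 0.00131. This call against siScramble was lost without replicate 2 (adjusted p = 0.0158), without replicate 3 (0.0122) and without replicate 4 (0.00574), at log2 ratios of -0.32, -0.32 and -0.31.

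The difference of the comparisons for *Rab17*, wt minus siScramble, was -1.25 on the log2 scale (95% interval -1.36 to -1.14, limma adjusted p = 6.88e-07), so that its ratio over wt was 42.0% of its ratio over siScramble. The levels on the normalised log2 intensity scale show where the comparisons part. In wt cells the *Rab17* probe stood at 10.44, 10.38, 10.44 and 10.41 in replicates 1 to 4. In siScramble cells it stood at 8.99, 9.13, 9.07 and 9.08. In si*Pax8* cells it stood at 8.92, 8.88, 8.85 and 8.71 on the arrays with wt and at 8.74, 8.80, 8.73 and 8.70 on those with siScramble. The order was thus wt, siScramble, si*Pax8*, with no overlap between any of the 3, and the si*Pax8* values of both sets of arrays overlapped each other. The transfected cells of both kinds lay far below the wt cells and close to each other. Transfection and scrambled siRNA cannot be told apart as the source of the gap between wt and siScramble cells, since the sources differ on whether the wt cells had received the transfection reagent.

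**Figure D1:**
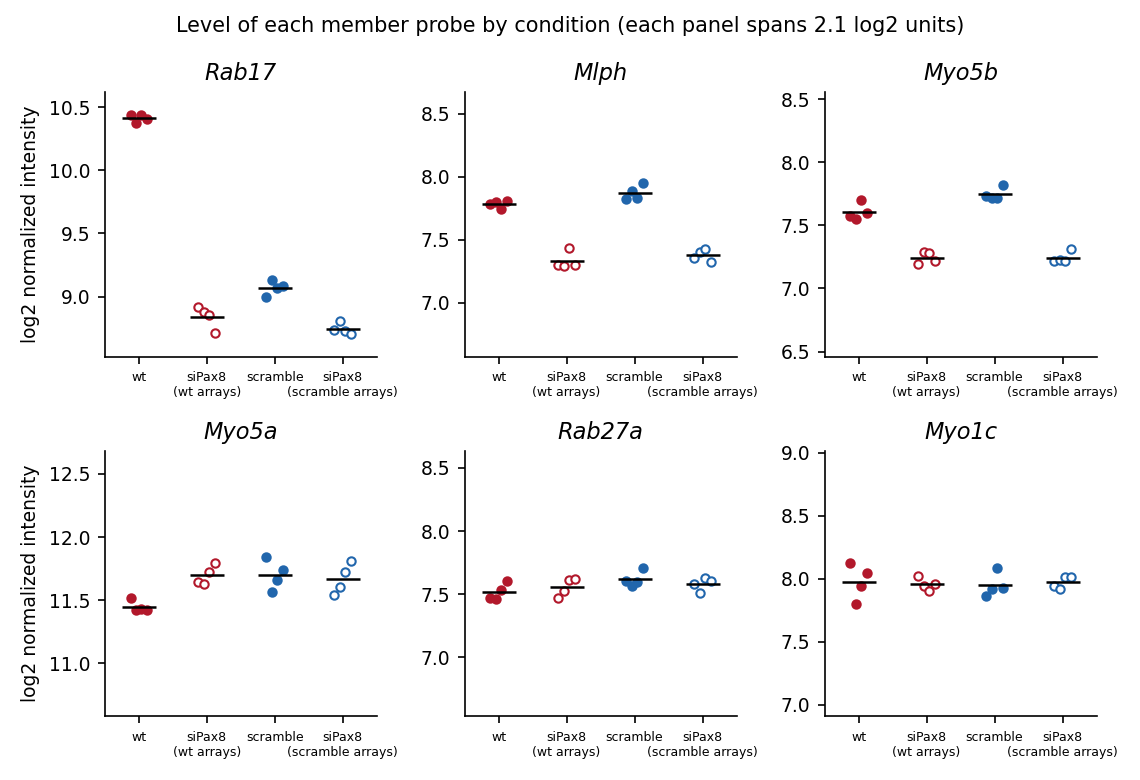
Levels of the 6 member probes as log2 normalised intensity (vertical axis, each panel spanning the same number of log2 units) in wt, siScramble and si*Pax8* cells, the latter shown for each set of arrays. Points are the 4 replicates with dye-swapped arrays averaged, and lines are their means: *Rab17* fell from 10.42 in wt cells to 9.07 in siScramble and 8.84 or 8.74 in si*Pax8* cells, and for *Mlph* and *Myo5b* the si*Pax8* values lie below those of both controls.

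*Mlph* encodes melanophilin, the adaptor between Rab27a and myosin Va, and its probe was A_44_P744974 (NM_001012135). Its log2 ratios against wt were -0.48, -0.51, -0.31 and -0.50 in replicates 1 to 4. Replicate 3 was the highest, and the other 3 lay close together. The mean was -0.45 ± 0.096 (SD, n = 4), or 73.2% of the wt level, with a 95% interval of -0.54 to -0.36 and a limma adjusted p of 4.4e-05. Against siScramble the log2 ratios were -0.47, -0.48, -0.41 and -0.62, with replicate 4 the lowest. Their mean was -0.50 ± 0.092 (SD, n = 4), or 70.9% of control, with an interval of -0.59 to -0.41 and a limma adjusted p of 0.000802. Without replicate 2 this call was lost (adjusted p = 0.0106) at a log2 ratio of -0.50. The replicates of the comparisons overlapped, and the difference was 0.05 (interval -0.08 to 0.18, limma adjusted p = 0.746). The level was 7.78 ± 0.030 in wt, 7.87 ± 0.058 in siScramble and 7.33 ± 0.067 or 7.38 ± 0.045 in si*Pax8* cells (log2 normalised intensity, SD, n = 4), so that both controls lay above si*Pax8* cells, the siScramble replicates slightly above all wt replicates.

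*Myo5b* encodes myosin Vb, the motor that acts with Rab11 in apical recycling, and its probe was A_44_P339558 (NM_017083). Against wt its log2 ratios were -0.38, -0.26, -0.42 and -0.39 in replicates 1 to 4, replicate 2 being the highest. The mean was -0.36 ± 0.071 (SD, n = 4), or 77.8% of the wt level, with a 95% interval of -0.44 to -0.28 and a limma adjusted p of 7.35e-05. Against siScramble they were -0.51, -0.50, -0.50 and -0.51. This was the smallest spread of any member, and all 4 values lay below all 4 of the comparison with wt. The mean was -0.51 ± 0.010 (SD, n = 4), or 70.5% of control, with an interval of -0.56 to -0.45 and a limma adjusted p of 0.000141. The difference of the comparisons was 0.14 (interval 0.05 to 0.23) and was not called (limma adjusted p = 0.0481). The levels were 7.61 ± 0.067 in wt, 7.75 ± 0.051 in siScramble and 7.24 ± 0.049 or 7.24 ± 0.045 in si*Pax8* cells (log2 normalised intensity, SD, n = 4). As for *Mlph*, the siScramble replicates lay slightly above all wt replicates, which is the opposite order to that of *Rab17*.

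From the intensities processed by Agilent's software the falls of *Mlph* and *Myo5b* were larger. *Mlph* then had a log2 ratio of -0.75 against wt and -0.85 against siScramble. *Myo5b* had -0.74 and -1.03. On these values the calls of *Mlph* (adjusted p = 0.0083), *Myo5b* (0.00803) and *Rab17* (0.0294) against siScramble and of *Myo5b* against wt (0.00525) missed the threshold in limma, while those of *Rab17* and *Mlph* against wt were kept.

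*Myo5a* encodes myosin Va, the melanosome motor that binds melanophilin, and its probe was A_44_P209149 (NM_022178). Its log2 ratios against wt were 0.12, 0.21, 0.28 and 0.36 in replicates 1 to 4, all above 0. The mean was 0.24 ± 0.10 (SD, n = 4), or 118.4% of the wt level, with a 95% interval of 0.15 to 0.34 and a limma adjusted p of 0.00202. This call was lost without replicate 2 (adjusted p = 0.0107), without replicate 3 (0.0184) or without replicate 4 (0.0118), with slide as a block (0.00695), with si*Pax8* in Cy3 only (0.0152), with both comparisons in 1 fit (0.00985) and with Agilent's processed signals (0.0848), and was kept in 9 of 16 alternatives. Against siScramble the log2 ratios were -0.30, 0.04, 0.06 and 0.07. Replicate 1 alone was low and the other 3 lay just above 0. The mean was -0.03 ± 0.18 (SD, n = 4, limma adjusted p = 0.868), with an interval of -0.18 to 0.12. The difference of 0.28 (interval 0.09 to 0.46) was not called (limma adjusted p = 0.0633), although all 4 values against siScramble lay below all 4 against wt. Levels were 11.45 ± 0.048 in wt and 11.70 ± 0.12 in siScramble cells, with 11.69 ± 0.074 and 11.67 ± 0.12 in si*Pax8* cells (log2 normalised intensity, SD, n = 4). Wt cells were the lowest of the 3 conditions, and siScramble and si*Pax8* cells overlapped.

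*Rab27a*, the GTPase that recruits melanophilin to secretory and melanosomal membranes, had a log2 ratio of 0.04 ± 0.035 against wt (SD, n = 4, 95% interval -0.03 to 0.11, limma adjusted p = 0.407). Against siScramble it was -0.04 ± 0.056 (SD, n = 4, interval -0.11 to 0.04, adjusted p = 0.63), and the difference was 0.08 (interval -0.01 to 0.16, adjusted p = 0.303). *Myo1c*, a class I myosin that tethers membranes to cortical actin, had -0.02 ± 0.11 against wt (SD, n = 4, interval -0.12 to 0.08, limma adjusted p = 0.838). Against siScramble it had 0.02 ± 0.071 (SD, n = 4, interval -0.06 to 0.10, adjusted p = 0.814), with a difference of -0.04 (interval -0.17 to 0.09, adjusted p = 0.779). For both genes the replicates lay on either side of 0 in at least 1 comparison, and all 4 intervals included 0. Their levels in the 3 conditions overlapped. The adaptor *Mlph* thus had a lower level in si*Pax8* cells without a called change of the GTPase it binds.

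All 6 probes were well above background on 8 of 8 arrays in each condition of each comparison, and saturated on 0. The arrays lay on 4 slides, each with 2 arrays of each comparison in opposite dye orientation. Within single slides, the *Rab17* log2 ratio over wt lay between -1.65 and -1.54, and that over siScramble between -0.34 and -0.30. Those of *Mlph* lay between -0.50 and -0.40 over wt and between -0.55 and -0.44 over siScramble, and those of *Myo5b* between -0.39 and -0.31 and between -0.56 and -0.43. On each of the 8 arrays of each comparison the log2 ratios of these 3 genes were below 0. With slide as a block all 6 of their calls were kept. That fit took the dye-swapped arrays of a replicate, which share their RNA, as separate values. With si*Pax8* in Cy5 *Myo5b* was at -0.26 against wt and with si*Pax8* in Cy3 at -0.46, and for *Rab17* the values were -1.53 and -1.63. With si*Pax8* in Cy5 only, the calls of *Rab17* (adjusted p = 0.00748) and *Mlph* (0.00637) against siScramble were lost in limma.

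**Figure D2:**
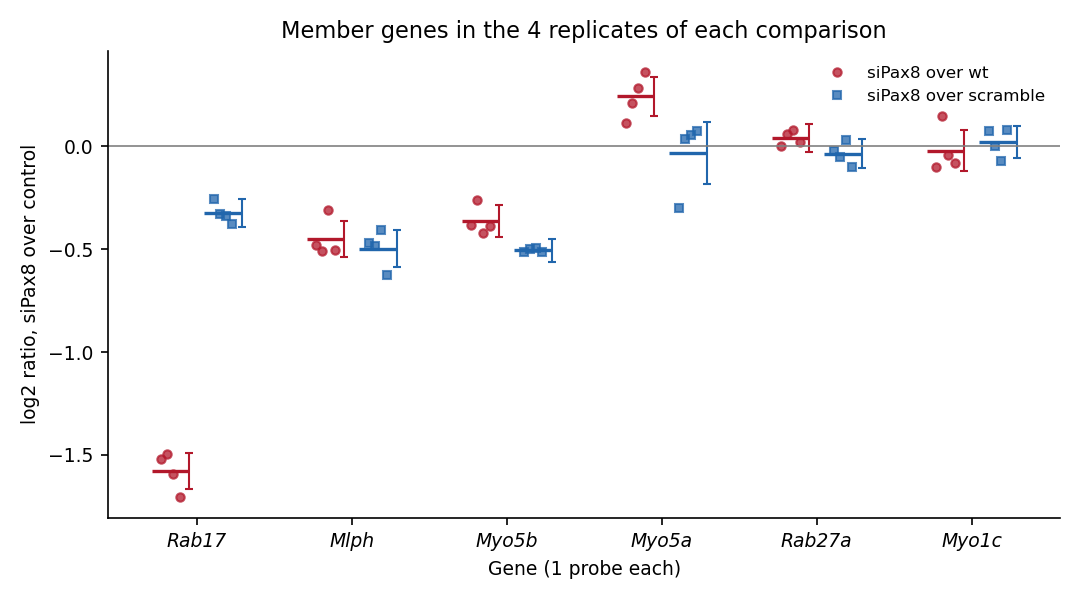
Log2 ratios of si*Pax8* over wt (circles) and over siScramble (squares) for the 6 measured members, with 1 point per replicate, the mean as a line and limma's 95% confidence interval as a bar. *Rab17* lies at -1.58 against wt and -0.33 against siScramble, *Mlph* and *Myo5b* lie between -0.36 and -0.51 in both, and *Rab27a* and *Myo1c* lie around 0.

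The genes around the members were read from lists of related genes, in which a gene had the mean of its probes and counted as called when each of its probes was. Over all probes 15.2% were called against wt and 2.03% against siScramble, or 25.6% and 3.06% with dim probes left out. Those shares are by probe, and none was computed by the rule used for genes. Whether a list held more or fewer calls than other genes was not tested. Of 21 other unconventional myosins 7 were measured by a probe named through RefSeq. Against wt 1 fell and 2 rose, and against siScramble 0 fell and 1 rose, with medians of -0.03 and -0.04. *Myo7a*, the motor of hair cell stereocilia and of retinal pigment epithelium, rose in both comparisons, at log2 ratios of 0.22 ± 0.053 and 0.35 ± 0.040 (SD, n = 4, limma adjusted p = 0.000749 and 0.000794). *Myo9a*, a class IX myosin, rose against wt by 0.34 ± 0.16 (adjusted p = 0.0014) and had 0.21 ± 0.31 against siScramble. *Myo16* fell against wt, at -0.43 ± 0.071 (adjusted p = 2.58e-05), and had -0.10 ± 0.067 against siScramble, with a called difference (-0.33, adjusted p = 0.00156). The measured members of the myosin family therefore moved in both directions. *Myo5c*, the epithelial paralogue of *Myo5a* and *Myo5b*, was named only through the supplementary table that ranks changed probes and stands outside these counts. Its log2 ratios were 0.98, 0.72, 0.95 and 0.75 against wt and 0.47, 0.43, 0.48 and 0.08 against siScramble. The mean of 0.85 ± 0.13 against wt was called (limma adjusted p = 3.54e-06), and that of 0.36 ± 0.19 against siScramble was not (0.0196). Of the class V myosins named through RefSeq, *Myo5b* fell in both comparisons. *Myo5a* rose against wt, a call kept in 9 of 16 alternatives, and was not called against siScramble. *Myo5c* is left out of this contrast, since its naming was not independent of its change.

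Of 31 partners of myosins V and VI and effectors of Rab27, 20 were measured. Against wt 0 were lower and 2 higher, and against siScramble 0 were called in either direction, with medians of 0.00005 and 0.03. The 2 were *Tom1*, an endosomal adaptor that binds myosin VI (0.24 ± 0.13, limma adjusted p = 0.00465), and *Unc13d*, the Rab27 effector Munc13-4 (0.20 ± 0.027, adjusted p = 0.000798). Against siScramble these had 0.03 ± 0.032 and 0.03 ± 0.098. The 3 probes of *Rab11a*, the GTPase that binds myosin Vb, averaged 0.01 ± 0.047 against wt and 0.17 ± 0.053 against siScramble and were not called. Their limma adjusted p against wt ran from 0.00853 to 0.0191, so the mean near 0 does not show that each probe was unchanged. *Sytl2* and *Rab11fip4* were named only through the ranked supplementary table and stand outside these counts. *Sytl2*, a synaptotagmin-like Rab27 effector, had 0.28 ± 0.029 and 0.26 ± 0.033 and was called in both comparisons, and *Rab11fip4* had -0.31 ± 0.071 against wt, which was called, and -0.16 ± 0.075 against siScramble.

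Of 32 genes of apical recycling, the exocyst and polarity, 24 were measured. Against wt 5 fell and 7 rose, and against siScramble 0 were called, with medians of -0.0042 and 0.02. The largest change was that of *Ehd4*, an endosomal ATPase of recycling, at -0.92 ± 0.051 against wt (limma adjusted p = 2.48e-07) and -0.28 ± 0.097 against siScramble (adjusted p = 0.00717), with a called difference (adjusted p = 4e-05). *Crb3*, an apical polarity protein, rose by 0.52 ± 0.13 against wt, *Mal2*, a protein of transcytosis, by 0.47 ± 0.042, and *Exoc8*, an exocyst subunit, by 0.39 ± 0.24. *Mal*, a proteolipid of apical transport, fell to -0.35 ± 0.051. Against siScramble these 4 had 0.15 ± 0.16, 0.22 ± 0.071, 0.08 ± 0.23 and -0.22 ± 0.13.

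Of 23 genes of the actin of cortex and microvilli, 16 were measured. Against wt 5 fell and 3 rose, and against siScramble 1 fell and 0 rose, with medians of 0.03 and -0.0039. *Tmod1*, which caps the pointed ends of actin filaments, fell in both comparisons, at -1.10 ± 0.084 and -0.41 ± 0.074 (limma adjusted p = 5.52e-07 and 0.00382), and its difference was called (adjusted p = 0.00034). *Espn*, an actin-bundling protein of microvilli, fell against wt at -0.52 ± 0.067 and had -0.17 ± 0.098 against siScramble, with a called difference (adjusted p = 0.00225). The membrane linkers *Ezr* and *Rdx* went opposite ways against wt, at 0.55 ± 0.061 and -0.28 ± 0.090. Against siScramble they had 0.17 ± 0.15 and -0.11 ± 0.097 and were not called.

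**Figure D3:**
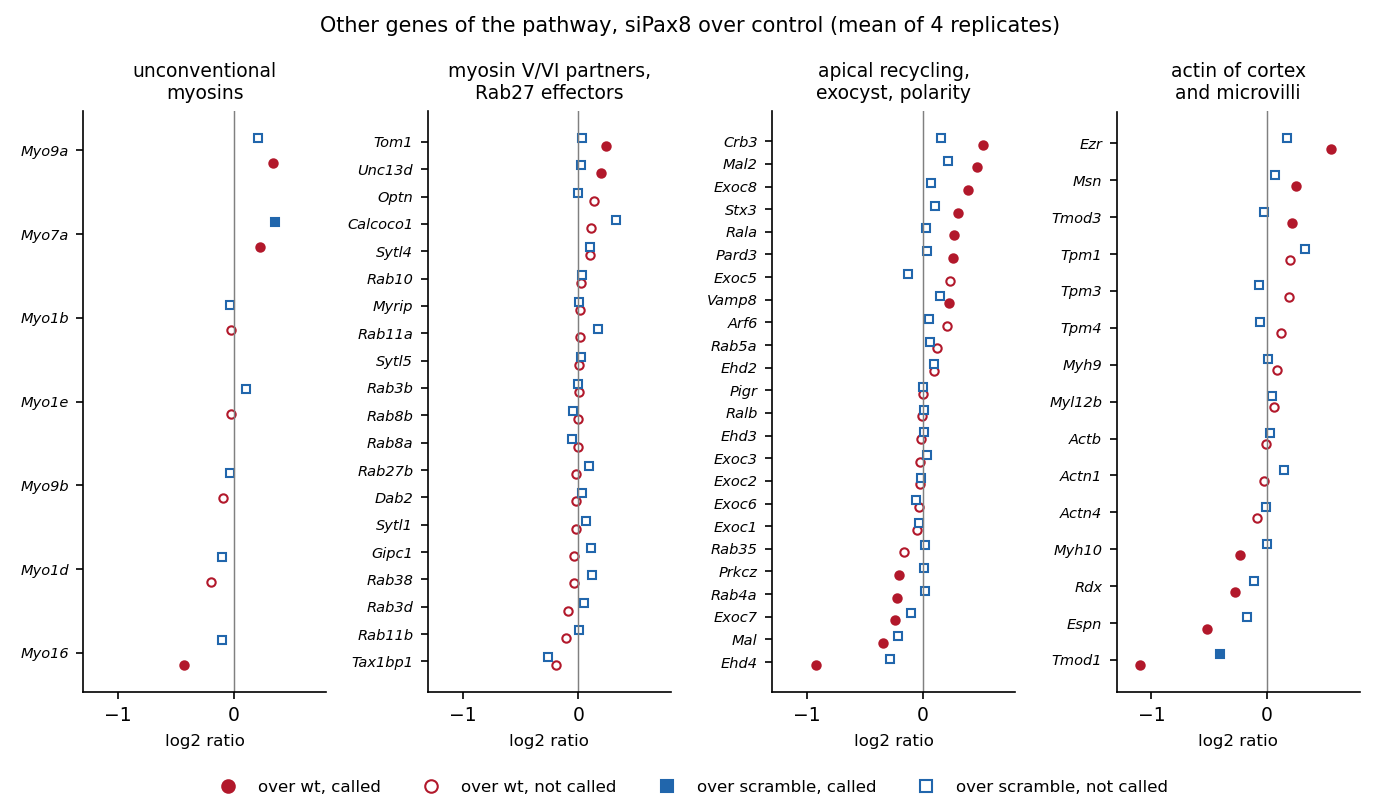
Mean log2 ratios of si*Pax8* over wt (circles) and over siScramble (squares) for the measured genes of 4 lists (1 gene of the actin list is not shown), ordered within each list by the ratio over wt, with filled symbols for called genes. Filled circles lie on both sides of 0 in 3 of the 4 lists, and the filled squares are those of *Myo7a* and *Tmod1*.

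*Mlph* and *Rab17* are near neighbours on rat chromosome 9, with 1 protein-coding gene, the prolactin releasing hormone gene *Prlh*, between them in the RefSeq gene order. *Prlh* was above background on every array, with log2 ratios of -0.0035 ± 0.054 against wt and -0.08 ± 0.064 against siScramble (SD, n = 4, limma adjusted p = 0.965 and 0.239). Among the 5 nearest measured genes on the side of *Mlph*, *Ackr3* (-0.49 ± 0.069, limma adjusted p = 1.2e-05) and *Sh3bp4* (-0.42 ± 0.055, adjusted p = 2e-05) fell against wt, and neither was called against siScramble (-0.06 ± 0.16 and -0.21 ± 0.11). *Cops8*, the nearest, had -0.08 in the first and -0.06 in the second comparison, *Spp2* had -0.10 and 0.01, and *Trpm8*, above background on no array, was not called. On the side of *Rab17*, *Lrrfip1*, *Ramp1*, *Ube2f*, *Scly* and *Ilkap* gave 0 calls in either comparison.

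**Figure D4:**
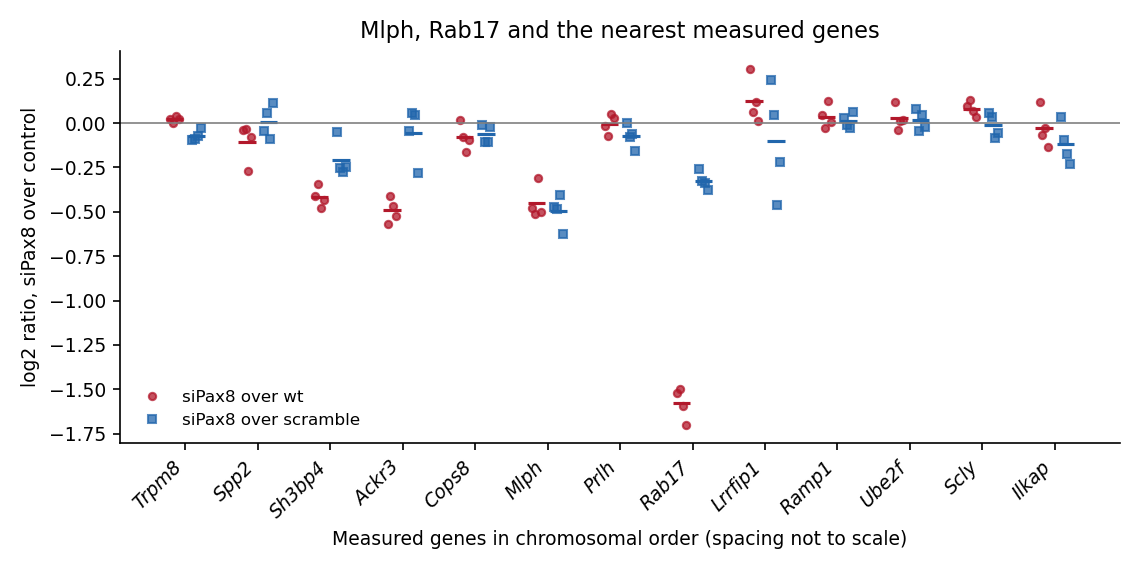
Log2 ratios of si*Pax8* over wt (circles) and over siScramble (squares) for *Mlph*, *Prlh*, *Rab17* and the 5 nearest measured genes on each side, in chromosomal order and not to scale, with 1 point per replicate and the mean as a line. *Rab17* at -1.58 stands below all others against wt, and *Prlh* beside it lies at -0.0035.

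By the distance between the 8 replicate log2 ratios, among 8896 genes named through RefSeq, the gene most like *Rab17* was *Aqp9*, an aquaporin that also passes glycerol (distance 0.652, log2 ratios -1.29 and -0.43 against wt and siScramble). It was followed by *Aldh1a1* (-1.20 and -0.23), *Kng2* (-1.18 and -0.22), *Wnt4* (-1.25 and -0.09) and *Nppc* (-1.34 and 0.01). *Mlph* and *Myo5b* shared 4 of their 5 most similar genes, *Rtn4r*, *Bri3bp*, *Stat5a* and *Pdia5*, and *Rtn4r*, the Nogo receptor, was first for both (distances 0.243 and 0.18, log2 ratios -0.40 and -0.45). The fifth was *Alg10* for *Mlph* (-0.56 and -0.47) and *Errfi1* for *Myo5b* (-0.41 and -0.54). None of the genes most like *Rab17* was among those most like *Mlph* or *Myo5b*. Since the distance is taken on the ratios themselves, such sharing or its lack restates the members' own values.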

How the data were processed

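Rat PCCl3 thyroid cells were measured on 16 two-colour Agilent arrays, 8 for each comparison. For every array the authors deposited scanner intensities, unnormalised spot means and local backgrounds in Cy3 and Cy5 as well as intensities that Agilent's software had processed, and a table of normalised log2 ratios, which runs as control over si*Pax8* (correlation -0.999 to -0.993 with the values used here, column medians 0.00039 to 0.0074). Per the file headers Feature Extraction 10.1.1.1 was used, and the limma version is not given in the sources used here.

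Mean intensities were corrected with normexp (offset 50), normalised by loess within arrays with control and outlier spots (112 to 215 per array) at weight 0, and by quantiles between arrays, in R 4.3.3 with limma 3.58.1 and statmod 1.5.0. Spots of a probe and dye swaps of a replicate were averaged. The 4 values of each comparison were fitted with lmFit and eBayes, and the difference on all 8 as separate groups. An offset compresses ratios of dim probes. The number of arrays limits the precision.

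Probes were named by RefSeq accession (10768 of 41012), and *Rab17* through the names alone of a supplementary table. Genes named in the text were the members, up to 5 called genes per list with the largest mean ratio of both comparisons, the 5 genes most like *Rab17*, *Mlph* and *Myo5b*, the 5 nearest neighbours on each side, and *Pax8*, except that 1 gene of the actin list is not reported here by name. *Prlh*, *Rab11a*, *Myo5c*, *Sytl2*, *Rab11fip4* and the non-thyroid markers were named after their values were seen. Members and lists were chosen with earlier results of these data known.

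Dye-swapped arrays of the same number, which share their RNA, correlated in their deviations (r = 0.12 to 0.47 against wt, 0.33 to 0.51 against siScramble), although replicate 2 against wt correlated more with another number (0.2) and the consensus correlation over all probes was -0.124 and -0.115. Between the comparisons the same number gave r of 0.39, 0.17, 0.04 and 0.56, so numbers were not taken as pairs. Fits were tested on simulated data. Alternatives covered background correction, normalisation, dim probes, dye, slide, replicates and the deposited table.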

Additional observations from a re-analysis of the deposited data

Results flagged for a closer look

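*Rab17* differed between the comparisons, its log2 ratio over wt being lower than that over siScramble by a difference of -1.25 (wt minus siScramble, limma adjusted p = 6.88e-07). The ratio lay below 0 in 4 of 4 replicates of each comparison. In *Mlph* against wt, replicate 3 at -0.31 stood apart from the other 3 replicates, and in *Myo5a* against siScramble replicate 1 at -0.30 did. Of 12 groups of 4 values examined, these 2 passed Dixon's critical value, and chance alone flags about 1 in 20 groups.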

How the results depend on the processing

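Under 16 alternatives the log2 ratios of *Rab17*, *Mlph* and *Myo5b* in both comparisons were below 0 in 96 of 96 values. These genes were picked because they were called lower in both comparisons, and the alternatives reuse the same arrays. The count is therefore no separate evidence of their fall. Of these, 86 stayed on their side of the threshold. The signs were not all free to change. With dim probes left out, a dye term or a replicate or slide block, the log2 ratio was that of the main fit. So it was with both comparisons in 1 fit. Aquantile gave the same ratios as loess only. The counts over all members below hold such fixed and repeated values too. With Agilent's processed signals 2 members were called against wt and 0 against siScramble, where over all probes 3.17% and 0.0268% were called in place of 15.2% and 2.03%. The share of lower calls then moved from 53.9 to 40.9% against wt, from 41.9 to 0% against siScramble and from 52.3 to 42.0% for the difference. With si*Pax8* in Cy5 only, 1 member, *Myo5b*, was called against siScramble, beside 0.512% of all probes. Without 1 replicate in turn, 3 to 4 members were called against wt, 1 to 3 against siScramble (the lowest without replicate 2) and 1 for the difference. With the replicate block that pairs the comparisons by number, 2 members were called for the difference, *Rab17* and *Myo5a* (adjusted p = 0.00387), and the block within comparisons left 4 and 3 called. Of 282 member values under alternatives 251 kept direction and side of the threshold, 17 lost their call, 1 gained it and 13 changed sign, none of them called. For *Myo1c* against wt these were 0.0013 with loess only and with Aquantile, 0.016 with si*Pax8* in Cy3 only, and -0.075 to 0.0076 without 1 replicate in turn (above 0 without replicates 1 and 4). For *Myo1c* against siScramble it was -0.10 in Cy5 only, and for its difference 0.040 in Cy5 only and 0.0031 without replicate 1. *Rab27a* against siScramble was 0.026 in Cy5 only, and *Myo5a* against siScramble ranged from -0.068 to 0.056 without 1 replicate in turn (above 0 without replicate 1). The difference of *Mlph* was -0.036 with loess only and with Aquantile and -0.039 with the deposited table. The signal over background, a median of 1.63 to 1.94 in Cy5, limits what dim probes can show.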
